A study of Mus musculus with 2 samples.

Results

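The subject here is a set of 35 genes of mitosis, read across the cell types of the mouse peritoneal cavity. The members are a list of gene names, and all 35 were found once each among the 28692 genes of the deposited tables. Cells came from germ-free male C57BL/6 mice of 10 weeks, either wild type (WT) or of the genotype labelled Xbp1dIEC, a name used for loss of the transcription factor Xbp1 in intestinal epithelial cells. The labels do not name what drives the deletion, and both groups share the germ-free state. Each genotype is 1 droplet library (10x Chromium, 3′ chemistry v2) made from a pool of equal cell numbers of 4 mice, with 8700 cells encapsulated. With 1 library per genotype there is no replicate of either group. No test between genotypes was possible, no p-value is given, and every 95% interval below covers counting error only.

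Dividing cells make the proteins of mitosis in a wave that begins late in the cell cycle and ends with division. The kinase Cdk1, switched on by cyclins A and B, starts mitosis, the spindle checkpoint holds chromosome separation until every kinetochore is attached, and the anaphase-promoting complex then destroys the B cyclins and other proteins so that the cell can divide. Genes of this wave are known to be held off in resting cells by the DREAM complex and switched on by B-Myb and FoxM1, through short promoter elements named CHR (cell cycle genes homology region) that are bound through the MuvB proteins, often beside CCAAT boxes bound by NF-Y. Large peritoneal macrophages, which depend on the transcription factor Gata6, are known to keep up their number by dividing locally, as B-1 cells of the cavity also do.

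The promoters of the set are shown first, as a description of the members; no value here ties their letters to a difference between genotypes. Promoter windows of 250 bases before to 50 bases after the start were taken from RefSeq, build GRCm38.p6, and 30 of 35 members matched, with 32 windows because Ect2 and Prc1 have more than 1 start. Ccna2, Tpx2, Aurkb, Kif20a and Stmn1 were not matched. The letters TTTGAA and TTCGAA (2 forms of the CHR) and CCAAT were searched on both strands. The capitals below mark their matches, with TTCAAA and ATTGG standing for TTTGAA and CCAAT on the opposite strand. Each line gives the 150 bases just upstream of the start, 5′ to 3′ on the strand of the gene. Of the 7 genes, 5 have both kinds of match in these stretches, Ccnb1 has CCAAT alone and Birc5 has none.
Cdc20 (chr4:118437344-118437493, minus strand): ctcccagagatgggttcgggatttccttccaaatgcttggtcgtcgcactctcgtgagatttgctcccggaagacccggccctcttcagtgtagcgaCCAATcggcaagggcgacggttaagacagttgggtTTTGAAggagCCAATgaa
Cdk1 (chr10:69352913-69353062, minus strand): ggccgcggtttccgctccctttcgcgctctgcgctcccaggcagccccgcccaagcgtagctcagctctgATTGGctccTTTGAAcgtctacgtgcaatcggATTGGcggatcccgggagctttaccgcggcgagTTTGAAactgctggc
Top2a (chr11:99024190-99024339, minus strand): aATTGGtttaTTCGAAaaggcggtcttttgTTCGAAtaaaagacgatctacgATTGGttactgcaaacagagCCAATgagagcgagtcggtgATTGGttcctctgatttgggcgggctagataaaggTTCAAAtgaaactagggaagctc
Ube2c (chr2:164769779-164769928, plus strand): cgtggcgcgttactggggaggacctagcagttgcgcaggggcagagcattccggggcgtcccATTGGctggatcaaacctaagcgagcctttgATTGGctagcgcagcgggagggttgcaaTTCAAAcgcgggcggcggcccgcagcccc
Mki67 (chr7:135716380-135716529, minus strand): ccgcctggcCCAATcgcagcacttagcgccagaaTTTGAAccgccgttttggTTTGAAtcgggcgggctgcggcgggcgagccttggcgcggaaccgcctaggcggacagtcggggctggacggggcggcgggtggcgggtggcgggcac
Ccnb1 (chr13:100786487-100786636, minus strand): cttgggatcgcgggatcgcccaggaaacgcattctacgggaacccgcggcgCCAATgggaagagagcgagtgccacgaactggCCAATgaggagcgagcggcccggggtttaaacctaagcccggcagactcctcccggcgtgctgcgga
Birc5 (chr11:117849087-117849236, plus strand): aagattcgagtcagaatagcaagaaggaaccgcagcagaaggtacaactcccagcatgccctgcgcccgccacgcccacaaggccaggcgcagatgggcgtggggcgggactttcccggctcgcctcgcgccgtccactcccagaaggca

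In Cdc20 a CCAAT match began 53 bases and a TTTGAA match 18 bases upstream of the start. Cdk1 had TTTGAA matches at 71 and 15 bases with CCAAT matches, on the opposite strand, at 80 and 48 bases. Over all member windows, TTTGAA or TTCGAA was found in 26 of 32 (81.2%), against 19.2% of the 32851 promoter windows in the table. At least 1 CCAAT was found in 27 of 32 (84.4%), against 37.4% of all windows. At least 2 CCAAT matches were found in 19 windows (59.4%), against 11.7%. Both kinds of match together were present in 24 windows (75%), against 7.52%. The windows of Birc5, Nusap1 and Tacc3 held none of these letters. A match of this kind describes letters in a window and is no evidence of binding.

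Barcodes numbered 6204 in WT and 6246 in Xbp1dIEC, with 56229330 and 49703442 UMIs (unique molecular identifiers, each counted as 1 captured transcript) and a median of 8324 and 7280 UMIs per barcode. After removal of barcodes with a high mitochondrial share and of called doublets, 6058 and 6113 cells were kept. The 2 libraries shared 58 barcodes; 34 of these were assigned to a class in both, and 12 to the same class. Xbp1 itself read at 79.0 CPM (UMIs per 1000000 UMIs of the same cells) in WT and 83.9 CPM in Xbp1dIEC over all cells kept, which checks neither label, since the deletion is named for another tissue. Cells were assigned to 7 classes by UMIs of marker genes, none of them a member of the set. Cells with genes of more than 1 lineage, 575 in WT and 396 in Xbp1dIEC, were left out of the classes.

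Cells called large macrophages read Gata6 at 84.4 CPM in WT and 88.3 CPM in Xbp1dIEC, and the receptor Timd4 at 229 and 234 CPM. The Folr2/Retnla cells, macrophages chosen by UMIs of Folr2, Retnla and Cbr2, read Retnla at 16359 and 18073 CPM. They read the folate receptor gene Folr2 at 251 and 206 CPM, so Retnla supplied most of the UMIs that chose them. These cells also read Timd4, at 58.1 and 35 CPM, and Gata6, at 32.6 and 24.0 CPM. Cd209a cells carried the lectin gene Cd209a at 1699 and 1744 CPM. B-1 cells had the B-1 regulator Bhlhe41 at 74.9 and 85.1 CPM, where B-2 cells read 1.62 and 4.78 CPM. The surface receptor gene Fcer2a, a B-2 marker, read 210 and 199 CPM in B-2 cells. T cells read Cd3e at 277 and 278 CPM, and NK cells read the receptor gene Ncr1 at 623 and 482 CPM. Each class carried its own markers in both libraries. These genes also chose the cells, so the values describe the assignment, cannot check it and compare nothing. Cells with 3 or more UMIs of the lists for mast cells, eosinophils, mesothelium or erythrocytes numbered at most 1 per list and library. For neutrophils they numbered 163 and 134, and for plasma cells 22 in each library.

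The mitosis set was lower in large macrophages of the Xbp1dIEC library than of the WT library, and this held for every member. Summed over the 35 genes it read 965.5 CPM in 2941 WT cells and 494 CPM in 2901 Xbp1dIEC cells, a log2 ratio of Xbp1dIEC over WT of -0.97 (95% interval -0.999 to -0.935). A cell was called set-positive when it held 2 or more UMIs of the set after each cell had been thinned at random to 1000 UMIs, which removes differences of depth between cells. By that rule 280 WT large macrophages (9.52%, 8.48 to 10.6) and 131 Xbp1dIEC large macrophages (4.52%, 3.79 to 5.34) were positive. The log2 ratio of these shares was -1.08 (-1.39 to -0.77). Without thinning, 51.2% and 31.4% of cells held 2 or more UMIs of the set. Median depth moved in the same direction, at 9590 UMIs per large macrophage in WT and 7703 in Xbp1dIEC, and the median mitochondrial share was 3.03% and 3.56%; whether the condition of the cells contributed was not tested.

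**Figure D1:**
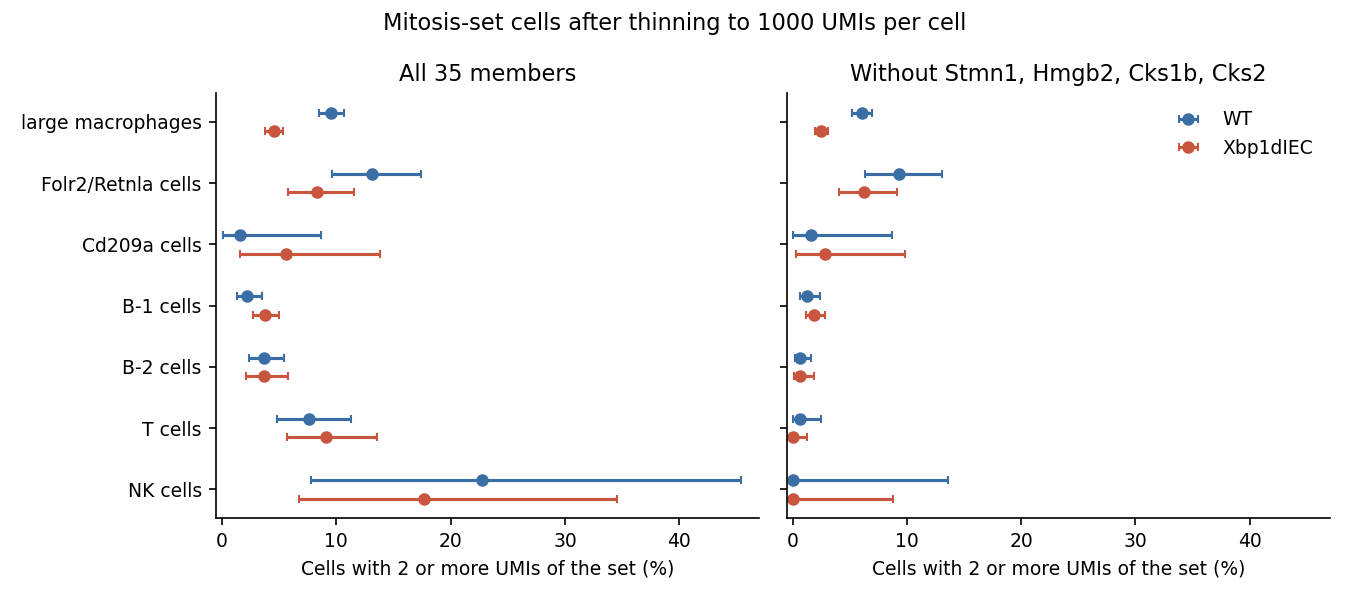
Percentage of cells with 2 or more UMIs of the mitosis set after thinning to 1000 UMIs per cell (x axis), for 7 cell classes (y axis) in the WT and Xbp1dIEC libraries, with all 35 members on the left and without Stmn1, Hmgb2, Cks1b and Cks2 on the right. Points are shares of 1 library and bars are exact 95% intervals for counting error, or for a share of 0 the limit that 3 counts give; WT large macrophages sit at 9.52% and Xbp1dIEC at 4.52%, and the values of T and NK cells drop to at most 0.690% on the right.

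The order of the classes depended on 4 members that are made outside mitosis as well. Stmn1 (stathmin, which destabilises microtubules), Hmgb2 (a DNA-bending chromatin protein), and Cks1b and Cks2 (small binding partners of cyclin-dependent kinases) together held 49.0% of the set's UMIs in WT large macrophages. In T cells they held 70.5% in WT and 83.3% in Xbp1dIEC, and in NK cells 92.9% and 86.6%. Positive shares with all members were 7.59% (22 of 290) and 9.09% (21 of 231) in T cells, and 22.7% (5 of 22) and 17.6% (6 of 34) in NK cells. Of these, 20 of 22 and 21 of 21 positive T cells, and every positive NK cell, would not have been called without those 4 genes. Hmgb2 alone supplied 45.3% and 55.1% of the set's UMIs in T cells.

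With the 31 remaining members, both macrophage classes of WT stood above B-1, B-2 and T cells. The WT share was 9.30% (29 of 312) in Folr2/Retnla cells and 6.05% (178 of 2941) in large macrophages, against 1.30% (10 of 770) in B-1 cells. B-2 cells, mostly resting lymphocytes that serve here as the background, read 0.636% (4 of 629, median 4132 UMIs per cell) in WT and 0.642% (3 of 467, median 3602) in Xbp1dIEC. T cells read 0.690% (2 of 290) in WT; in Xbp1dIEC 0 of 231 were positive, which allows a share of up to 1.30%. No NK cell was positive, with limits of 13.6% in WT and 8.82% in Xbp1dIEC that do not place these few cells in the order. Cd209a cells could not be placed either. They read 1.61% (1 of 62, 0.04 to 8.66) in WT and 2.82% (2 of 71, 0.34 to 9.81) in Xbp1dIEC. On this reduced set the Xbp1dIEC shares were 6.23% (24 of 385) in Folr2/Retnla cells, 2.48% (72 of 2901) in large macrophages and 1.88% (22 of 1169) in B-1 cells. The intervals of large macrophages (1.95 to 3.12) and B-1 cells (1.18 to 2.84) overlapped there. The log2 ratio between genotypes in large macrophages was -1.29 (-1.70 to -0.88).

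In large macrophages all 35 members had the 30 or more UMIs over both libraries required of a measured gene. Of these, 34 were lower in Xbp1dIEC past 1.5-fold with 1 CPM added to each level, and none was higher. The same rule of size called 2.72% of the 11150 genes measured in these cells lower and 0.269% higher. The median log2 ratio was -0.93 over the members (range -1.28 to -0.40) and -0.06 over all measured genes. With 10 CPM added in place of 1, which shrinks the ratios of low genes, 11 of the 35 passed 1.5-fold and the median was -0.50. The share of all genes was not computed with 10 CPM added, so the 2.72% is no background for these 11. Levels are given as UMIs of the 3′ end in CPM, with no scaling to gene length, and are compared between libraries and not between genes.

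Cdk1 and its partners were all lower. Cdk1, the kinase that starts mitosis, read 13.8 CPM in WT and 5.71 CPM in Xbp1dIEC. Its activating cyclins were lower too: cyclin A2 (Ccna2) read 13.1 and 6.34 CPM, cyclin B1 (Ccnb1) 8.55 and 2.92 CPM, and cyclin B2 (Ccnb2) 17.3 and 7.05 CPM. Ccnb1 had the lowest log2 ratio of all members with 1 CPM added, -1.28 (-1.60 to -0.97). The order depends on that addition, which shrinks the ratios of lower genes such as Ect2 (2.81 and 0.899 CPM) more. Cks1b read 55.7 CPM (53.0 to 58.5) in WT against 29.1 CPM (26.9 to 31.4) in the Xbp1dIEC library, with a log2 ratio of -0.91 (-1.04 to -0.79). Cks2 read 49.6 CPM (47.1 to 52.3) and 32.5 CPM (30.2 to 34.99), a log2 ratio of -0.59 (-0.72 to -0.47). The 2 Cks genes, which were also read outside set-positive cells, had the smallest differences of the group.

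The mitotic kinases and checkpoint proteins had log2 ratios from -0.98 to -0.80 with 1 CPM added. That addition shrinks the ratios of genes read at a few CPM, so this range does not show how alike they were. Aurkb, the enzyme of the chromosomal passenger complex, read 10.9 CPM in WT and 5.03 CPM in Xbp1dIEC, a log2 ratio of -0.98 (-1.26 to -0.71). Bub1b, the checkpoint protein BubR1, read 5.77 and 2.74 CPM, a log2 ratio of -0.86 (-1.19 to -0.52). Their relatives were lower too. Aurka and Plk1, which build the spindle poles, had log2 ratios of -0.89 and -0.80. The checkpoint kinases Bub1 and Ttk read 3.47 and 1.35 CPM, and 2.88 and 0.989 CPM, from 100 and 83 UMIs in WT.

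Genes of the centromere and the passenger complex ran from one of the largest differences, in Birc5, to one of the smallest, in Cenpa. Birc5 (survivin, which brings Aurora B to centromeres) read 55.3 CPM (52.6 to 58.1) in WT against 22.5 CPM (20.5 to 24.5) in the Xbp1dIEC library, with a log2 ratio of -1.26 (-1.40 to -1.12). Cenpa, the histone H3 variant that marks centromeres, read 41.4 CPM (39.1 to 43.8) and 25.3 CPM (23.3 to 27.5), a log2 ratio of -0.69 (-0.83 to -0.55). The kinetochore motor Cenpe and the kinetochore protein Cenpf had log2 ratios of -1.19 and -1.08. The intervals of Birc5 and Cenpa did not overlap.

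Both members that work with the anaphase-promoting complex were lower past 1.5-fold. Ube2c, the enzyme that loads ubiquitin for the complex, read 51.5 CPM (48.9 to 54.2) and 24.1 CPM (22.1 to 26.2), a log2 ratio of -1.06 (-1.20 to -0.93). Its activator Cdc20 read 8.72 and 3.28 CPM, a log2 ratio of -1.18 (-1.49 to -0.87). Among the 5 kinesins, the motor proteins that move chromosomes and slide microtubules, log2 ratios ran from -1.21 to -0.75. Kif22, which pushes chromosome arms towards the spindle middle, read 9.24 and 3.42 CPM (log2 ratio -1.21, -1.52 to -0.91). Kif23, a motor of the central spindle, read 8.30 and 3.95 CPM (-0.91, -1.21 to -0.61). Kif11, the bipolar spindle motor, Kif20a of the late spindle and the microtubule depolymerase Kif2c had log2 ratios of -0.87, -0.75 and -0.77.

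Spindle proteins formed a further group of 6, all lower past 1.5-fold. Stmn1 read 160.4 CPM (155.8 to 165.1) in WT against 76.1 CPM (72.5 to 79.8) in the Xbp1dIEC library, with a log2 ratio of -1.07 (-1.15 to -0.99). Nusap1, which bundles microtubules near chromatin, read 17.0 CPM (15.6 to 18.6) and 8.58 CPM (7.41 to 9.89), a log2 ratio of -0.91 (-1.14 to -0.69). Prc1 crosslinks the central spindle and Tpx2 activates Aurora A on the spindle; their log2 ratios were both -0.85. Hmmr and Tacc3, which act on spindle microtubules and poles, had log2 ratios of -1.16 and -0.89.

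The genes of cytokinesis held the only member that did not pass 1.5-fold. Racgap1, a subunit of the centralspindlin complex, read 18.8 CPM (17.3 to 20.5) in WT and 14.0 CPM (12.5 to 15.7) in Xbp1dIEC. Its log2 ratio was -0.40 (-0.59 to -0.21), with an interval that reached 1.5-fold. Cks2 passed that size narrowly, at -0.59 (-0.72 to -0.47). Members past it numbered 33 of 35 with a mitochondrial limit of 5%, with stricter gates or with no limit on other lineages. Anln (anillin, a scaffold of the contractile ring) read 6.60 and 3.82 CPM, a log2 ratio of -0.66 (-0.97 to -0.35). Ect2, which activates RhoA at the division plane, read 2.81 and 0.899 CPM, a log2 ratio of -1.01 (-1.38 to -0.60).

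Among chromatin and nuclear proteins, the proliferation marker Mki67, which coats mitotic chromosomes, read 37.0 CPM in WT and 16.2 CPM in Xbp1dIEC (log2 ratio -1.14, -1.31 to -0.98). Top2a, the topoisomerase that untangles sister chromatids, read 54.6 CPM (52.0 to 57.4) and 26.6 CPM (24.5 to 28.8), a log2 ratio of -1.01 (-1.15 to -0.88). Hmgb2 read 207.5 CPM (202.2 to 212.8) and 123 CPM (118 to 127), a log2 ratio of -0.75 (-0.82 to -0.69).

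**Figure D2:**
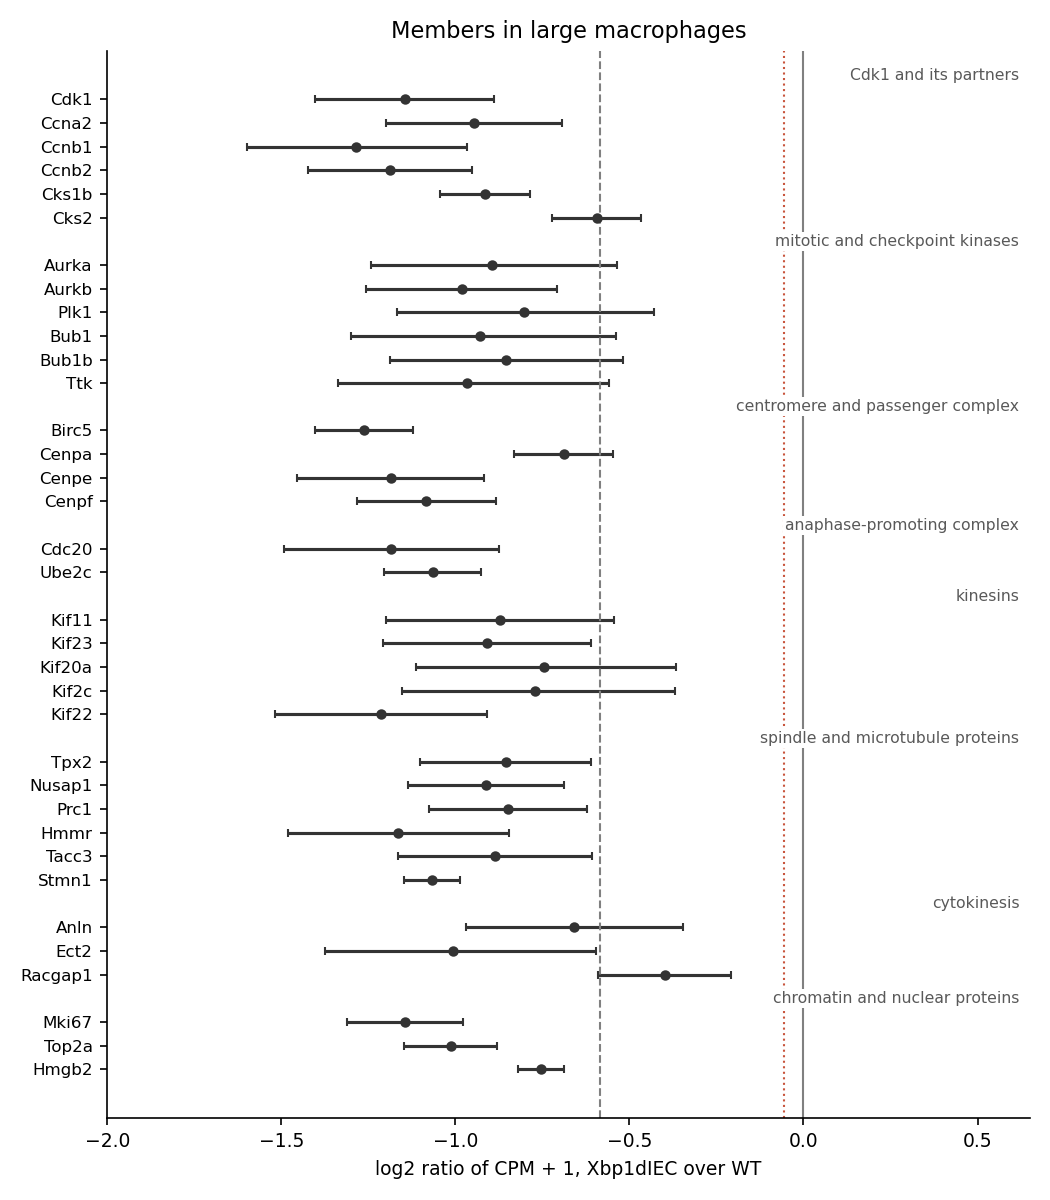
Log2 ratio of CPM + 1, Xbp1dIEC over WT, for each of the 35 members in large macrophages, grouped by role; points are ratios of 1 library to 1 library and bars are 95% intervals for counting error. The dashed line marks 1.5-fold lower and the dotted line the median of all measured genes (-0.06); only Racgap1, at -0.40, lies to the right of the dashed line, and Ccnb1 is lowest at -1.28.

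A separate list of 44 other mitosis genes was read in the same cells. Of the 43 measured, 32 were lower past 1.5-fold and none was higher, against 2.72% and 0.269% of all genes measured, with a median log2 ratio of -0.79 (range -1.28 to -0.11). Kif18b was not measured. The 6 with the most UMIs were Bub3 (log2 ratio -0.24), Smc4 (-0.58), Pttg1 (-0.13), Smc2 (-0.91), Incenp (-0.61) and Espl1 (-0.17). Bub3 is a checkpoint protein with roles outside mitosis, Smc4 and Smc2 are the core of condensin, Pttg1 is securin, Espl1 is separase and Incenp is the scaffold of the passenger complex. Foxm1 and Mybl2, the genes of FoxM1 and B-Myb, read 3.89 and 1.93 CPM, and 4.27 and 1.75 CPM, with log2 ratios of -0.74 and -0.94. Arhgap11a had the smallest difference of the 43, at -0.11.

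The distribution of the set over single large macrophages showed how the lower level was made up. After thinning, 75.8% of WT cells and 83.6% of Xbp1dIEC cells held no UMI of the set, and 14.7% and 11.9% held 1. Cells with 10 or more numbered 67 in WT (2.28%, 1.77 to 2.88) and 25 among Xbp1dIEC cells (0.862%, 0.558 to 1.27), which is a log2 ratio of -1.40 (-2.13 to -0.72). These few cells held 38.6% of the set's thinned UMIs in WT and 28.8% in Xbp1dIEC. The highest cell held 19 and 24 UMIs of 1000, and the median positive cell 5 and 4. Cells at both ends of the range were present in both libraries, and the numbers of cells at each positive level differed.

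**Figure D3:**
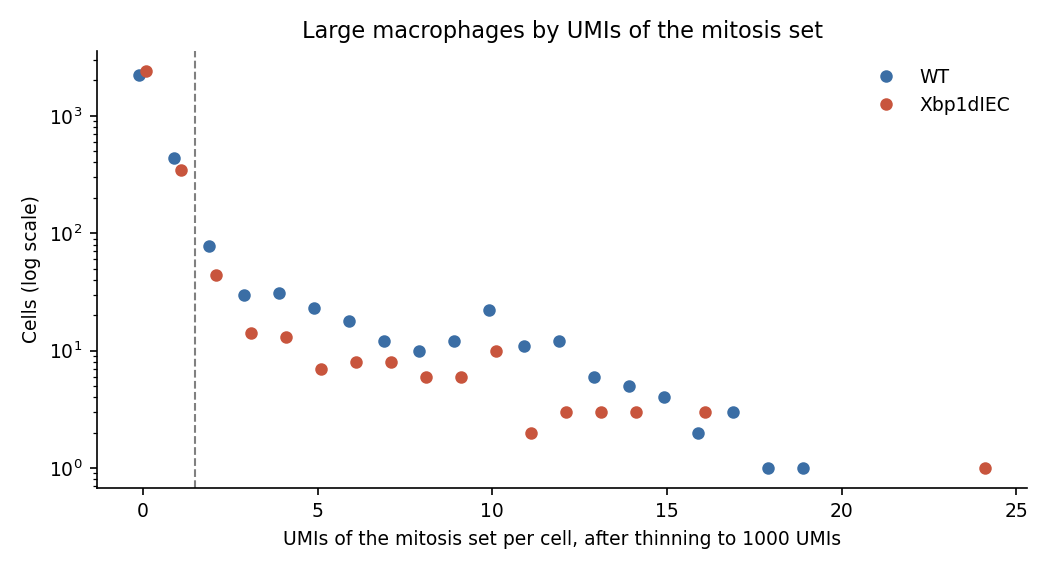
Number of large macrophages (y axis, log scale) by UMIs of the mitosis set per cell after thinning to 1000 UMIs (x axis), for the WT and Xbp1dIEC libraries; the dashed line separates cells with fewer than 2 from set-positive cells. WT counts exceed those of Xbp1dIEC at 2 and 3 UMIs and over most of the tail, where 67 WT and 25 Xbp1dIEC cells hold 10 or more UMIs.

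To keep the molecules that divided the cells out of the comparison, levels were taken from the UMIs that the thinning had left undrawn, and for each member the cells were divided by the other 34. Set-positive large macrophages expressed the set broadly: the median positive cell had UMIs of 17 members in WT and 14 in Xbp1dIEC, and the median negative cell of 1 in each. Positive cells were also deeper, with a median of 13242 against 9412 UMIs in WT and 10878 against 7639 in Xbp1dIEC. The share of a member's undrawn UMIs that lay in positive cells was 88.1% at the median in WT and 86.1% in Xbp1dIEC.

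Members differed in how far they were restricted to these cells. Hmmr was the most restricted in WT, with 99.5% of its UMIs in positive cells (213 of its undrawn UMIs against 1 in negative cells), and 98.4% in Xbp1dIEC. Ccnb1 had 97.4% and 98.2%, Nusap1 96.3% and 97.7%, and Plk1 97.2% and 89.7%. At the other end stood Hmgb2 with 52.9% and 38.2%, Racgap1 with 59.7% and 39.1%, Cks2 with 60.6% and 40.7%, Tacc3 with 63.1% and 60.4%, and Cks1b with 64.3% and 51.1%. Such shares also fall where fewer cells are positive, as in Xbp1dIEC, so they do not compare restriction between genotypes. The fold of CPM in positive over negative cells was 9.02 and 11.3 for Hmgb2, 10.1 and 9.03 for Racgap1 and 10.6 and 10.3 for Cks2. For Tacc3 it was 11.6 and 21.7, and for Cks1b 12.7 and 16.6. Stmn1, which was left out of the reduced set, had 77.6% and 72.5% of its UMIs in positive cells. Racgap1 and Tacc3 had lower shares and stayed in, so the reduced set is not the restricted part of the members. Stmn1 read 1109 CPM in positive and 42.2 CPM in negative WT cells. Hmgb2 read 1017 and 113 CPM. Over all large macrophages, the log2 ratios of Hmgb2, Racgap1 and Cks2 between genotypes were -0.75, -0.40 and -0.59, above the members' median of -0.93. Tacc3 and Cks1b, at -0.89 and -0.91, lay close to that median. Of the restricted members named, Hmmr and Ccnb1 read -1.16 and -1.28, and Nusap1 and Plk1 read -0.91 and -0.80. Whether restriction goes with the ratio between genotypes was not tested.

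**Figure D4:**
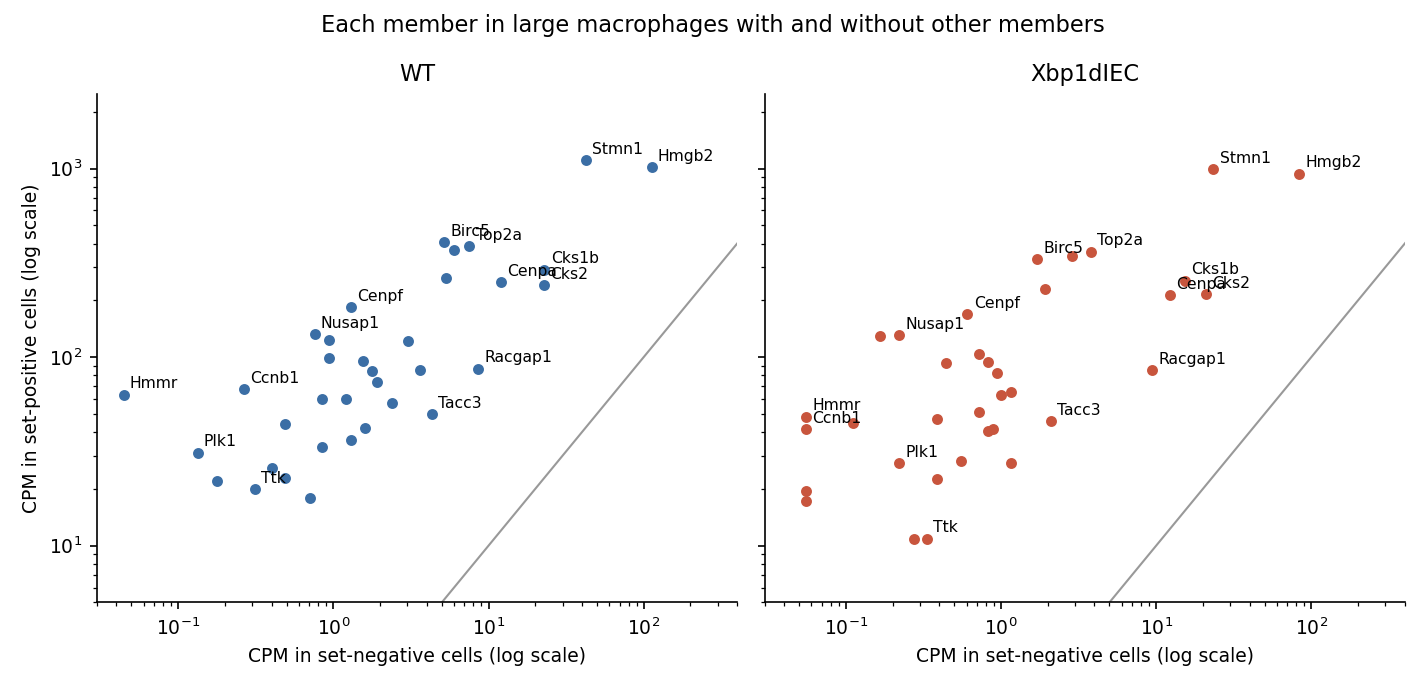
CPM of each member in set-positive large macrophages (y axis, log scale) against set-negative large macrophages (x axis, log scale), in WT on the left and Xbp1dIEC on the right, from UMIs not drawn in the thinning and with cells divided by the other 34 members. The line marks equal levels; every member lies above it in both libraries, Hmmr farthest to the left in WT, Hmgb2 and Stmn1 at the upper right.

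Members were also compared between genotypes within set-positive large macrophages. The median log2 ratio of Xbp1dIEC over WT was -0.19 (range -0.81 to 0.08), against -0.04 over the 7878 genes with 30 or more undrawn UMIs in these cells. Of the members, 33 of 35 were below 0, where 55.4% of those genes were. Past 1.5-fold, 3 members were lower (Ttk, Ccnb1 and Ect2) and none was higher, against 6.21% lower and 4.28% higher of those genes. Mki67 read 264 CPM in positive WT cells and 229 CPM in positive Xbp1dIEC cells, a log2 ratio of -0.20 (-0.40 to -0.01). Top2a read 389 and 363 CPM, a log2 ratio of -0.10 (-0.26 to 0.05). Ccnb1 read 67.4 and 41.3 CPM, a log2 ratio of -0.69 (-1.14 to -0.26). The intervals of 10 members lay below 0 and none above. Cells entered this comparison for holding UMIs of the set, which bounds how far their level can differ, so these values are not set against the difference in the share of positive cells. Of the positive cells, 102 of 280 in WT and 59 of 131 in Xbp1dIEC would not have been called without Stmn1, Hmgb2, Cks1b and Cks2. Among these, 48 in WT and 37 in Xbp1dIEC held no thinned UMI of any other member.

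Genes outside the set that marked the same cells were found by the ratio of positive over negative WT large macrophages among genes with 100 or more undrawn UMIs. The 10 highest were Cdca3, 2810417H13Rik, Aspm, Hist1h1b, Lockd, Esco2, Hist1h2ap, Fam64a, Pbk and Ckap2l, with log2 ratios from 5.52 to 5.02. Aspm (a spindle pole protein), Esco2 (which acetylates cohesin) and the histone gene Hist1h1b are known for roles in S phase or mitosis. Cdca3 read 153 CPM in positive and 2.36 CPM in negative WT cells, and 132.5 CPM in positive Xbp1dIEC cells. Of the 44 other mitosis genes, 43 were higher in positive cells in both libraries, and 41 in WT and 40 in Xbp1dIEC passed a log2 ratio of 2, a threshold passed by 2.45% and 2.38% of all genes measured. Pttg1 was the one at a lower level, with log2 ratios of -0.32 (-0.61 to -0.04) and -0.33 (-0.83 to 0.14).

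Genes of DNA synthesis overlapped in part. All 16 S-phase genes, among them Pcna and the Mcm helicase genes, were higher in positive cells, where 44.4% and 42.6% of all genes measured were lower. Their median log2 ratio was 2.06 in WT and 2.85 in Xbp1dIEC. A log2 ratio of 2 was passed by 8 and 14 of them, against 2.45% and 2.38% of all genes measured. Between genotypes, 13 of the 16 were lower in Xbp1dIEC large macrophages past 1.5-fold (median log2 ratio -0.81), against 2.72% of all genes measured. Cells with 2 or more thinned UMIs of that list made up 25.4% of mitosis-positive and 2.78% of mitosis-negative WT large macrophages, and 21.4% and 0.939% in Xbp1dIEC.

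Macrophage and regulator genes were read by the same division. Csf1r (the receptor for the growth factor CSF1), Maf (a regulator known to restrain macrophage division), Lyz2 (lysozyme), Apoe, Cxcl13 (a chemokine that attracts B cells), Arg1 and 7 others made a list of 13. The 7 others were Bhlhe40, Myc, Rarb, Cebpb, Marco, Ccnd1 and Ccnd2. All 13 read lower in positive than in negative cells in WT, and 12 of 13 in Xbp1dIEC, where 44.4% and 42.6% of all measured genes were lower. The intervals of Maf and Rarb in WT, and of Maf, Myc, Marco, Ccnd1 and Ccnd2 in Xbp1dIEC, included 0. Cxcl13 differed most: it read 245 CPM in positive and 630 CPM in negative WT cells (log2 ratio -1.36, -1.46 to -1.26). In Xbp1dIEC it read 227 and 1030 CPM (-2.18, -2.35 to -2.01). Between genotypes Cxcl13 was at -0.11 (-0.31 to 0.08) in positive cells and 0.71 (0.68 to 0.74) in negative cells.

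Maf differed least in WT. It read 57.9 CPM in positive and 61.4 CPM in negative WT cells (-0.08, -0.30 to 0.13), and 67.1 and 65.9 CPM in Xbp1dIEC (0.03, -0.30 to 0.34). Arg1 read 332 and 633 CPM in WT, and 209 and 266 CPM in Xbp1dIEC. Lyz2 and Csf1r, expressed by nearly all macrophages, had smaller differences, at -0.39 for each in WT. Myc, a driver of growth and entry into the cycle, read 10.4 CPM in positive and 17.8 CPM in negative WT cells.

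**Figure D5:**
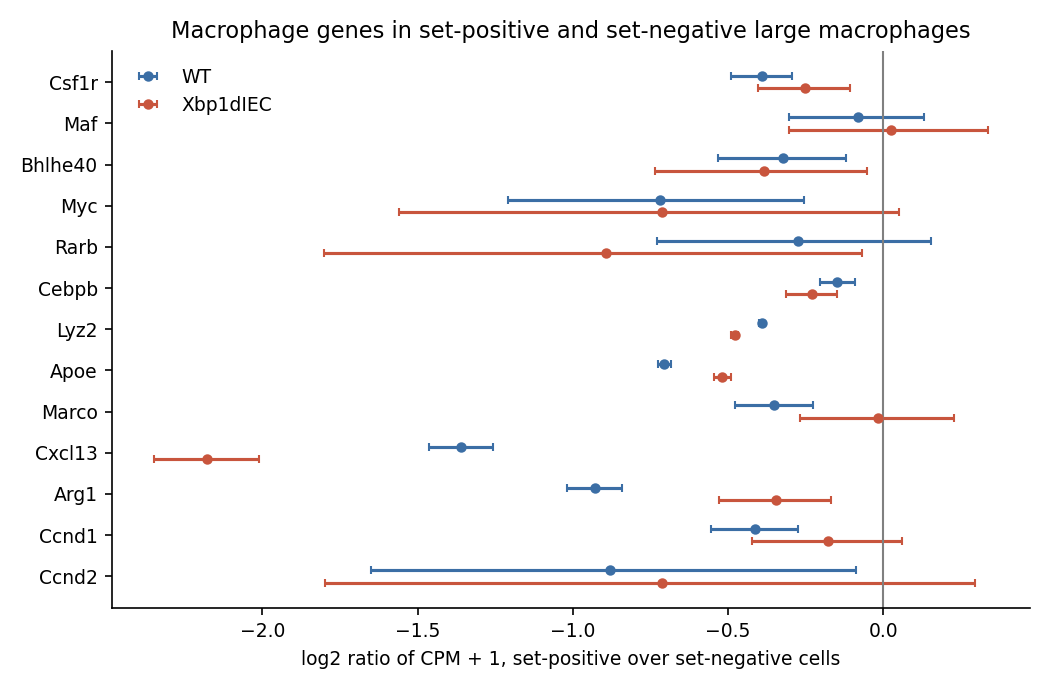
Log2 ratio of CPM + 1 in set-positive over set-negative large macrophages (x axis) for 13 macrophage and regulator genes (y axis) in the WT and Xbp1dIEC libraries; points come from 1 library each and bars are 95% intervals for counting error. Cxcl13 lies farthest to the left, at -1.36 in WT and -2.18 in Xbp1dIEC, and Maf lies near 0 in both.

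Folr2/Retnla cells had the highest level of the set per UMI of the 7 classes in both libraries, 1325 CPM in WT and 780 CPM in Xbp1dIEC, and they too were lower in Xbp1dIEC (log2 ratio -0.76, -0.84 to -0.69). Set-positive cells numbered 41 of 312 (13.1%, 9.60 to 17.4) in WT and 32 of 385 (8.31%, 5.76 to 11.5) in Xbp1dIEC. The interval of the log2 ratio of shares, -0.66 (-1.38 to 0.04), reached 0. Of 28 members measured, 21 were lower past 1.5-fold and none was higher, against 5.8% lower and 2.49% higher of all genes measured in these cells. Bub1b, Cdc20, Ect2, Kif20a, Kif2c, Plk1 and Ttk were not measured there. The median log2 ratio over the 28 was -0.72 (range -1.65 to -0.18). With 10 CPM added 11 of the 28 passed 1.5-fold, and the share of all genes by that rule was not computed.

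In Folr2/Retnla cells all 6 spindle members were lower past 1.5-fold, and Prc1 had the lowest ratio of the 28 measured with 1 CPM added. The intervals of Tpx2 and Tacc3, among the 6, reached past 0. Prc1 read 22.6 CPM in WT and 6.52 CPM in Xbp1dIEC (log2 ratio -1.65, -2.35 to -0.97). Kif11 read 9.68 and 2.75 CPM (-1.51, -2.43 to -0.57), and Cenpe 23.6 and 8.24 CPM (-1.41, -2.06 to -0.78). Mki67 read 52.9 and 27.1 CPM (-0.94, -1.33 to -0.56), close to its ratio in large macrophages. The smallest differences were those of Kif23 (-0.18), Racgap1 (-0.36), Hmgb2 (-0.37) and Cenpa (-0.38); the intervals of Kif23 and Racgap1 included 0. Of 31 other mitosis genes measured, 17 were lower past 1.5-fold.

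B-1 cells showed no such difference. The set read 358 CPM in WT and 382 CPM in Xbp1dIEC, a log2 ratio of 0.09 (0.02 to 0.17), and its sign was not stable: it was -0.21 when cells with genes of more than 1 lineage were assigned to the lineage with most marker UMIs. Positive cells numbered 17 of 770 (2.21%, 1.29 to 3.51) and 44 of 1169 (3.76%, 2.75 to 5.02), with a log2 ratio of 0.77 (-0.07 to 1.67). That ratio was not stable either: it was -0.36 (-0.69 to -0.04) when 1 UMI made a cell positive, 0.05 after thinning to 500 UMIs and 0.12 when more than 1000 UMIs per cell were drawn. Of 26 members measured, none was lower and 2 were higher past 1.5-fold, where 2.91% of all genes measured were lower and 2.79% higher. Those 2 were Hmmr at 0.723 and 2.16 CPM (log2 ratio 0.87, 0.10 to 1.47) and Kif11 at 1.74 and 3.28 CPM (0.65, -0.04 to 1.29), both at low levels, and the count was 0 with 10 CPM added. Top2a read 14.5 and 21.2 CPM (0.52, 0.20 to 0.85), and Mki67 7.67 and 10.3 CPM (0.38, -0.05 to 0.82). Cenpa (-0.28, -0.54 to -0.03) and Hmgb2 (-0.16, -0.29 to -0.03) lay on the other side. The median log2 ratio over the 26 members was 0.07, and the difference between B-1 cells and large macrophages was not tested.

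The other classes were too small or too poor in the set for more than a few members. In B-2 cells 5 members were measured and none passed 1.5-fold, where 4.4% of all genes measured were lower and 2.5% higher. With no limit on other lineages 1 of 8 measured members passed, and 1 of 10 when 10 UMIs made a gene measured. The set read 272 and 217 CPM in B-2 cells (log2 ratio -0.33, -0.49 to -0.16), and Hmgb2 read 120.0 and 88.8 CPM. In T cells 5 members were measured, with Cenpa lower at 35.7 and 20.0 CPM (log2 ratio -0.81, -1.63 to -0.03) and Racgap1 higher at 17.9 and 27.3 CPM (0.59, -0.26 to 1.44), against 5.41% lower and 5.27% higher of all genes measured. No member was higher in T cells with doublets kept, a mitochondrial limit of 5%, stricter gates, no limit on other lineages or 10 CPM added. The summed level in T cells, 528 and 466 CPM (log2 ratio -0.18), rested on 1 WT cell that held 201 of the set's UMIs (32.4%). Without the cell with most UMIs of the set in each library the log2 ratio in T cells was 0.28.

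Cd209a cells numbered 62 and 71, with 1 and 4 set-positive cells and a set level of 500 and 458 CPM (log2 ratio -0.13, -0.40 to 0.14). There 1 WT cell held 43.0% of the class's UMIs of the set, and the ratio became 0.36 without the top cell of each library. Of 5 members measured, Stmn1 was lower past 1.5-fold (104 and 46.4 CPM, log2 ratio -1.15, -1.92 to -0.42) and none was higher, where 9.5% of all genes measured were lower and 5% higher. NK cells, 22 and 34 in number, read the set at 534 and 693 CPM (0.38, -0.18 to 0.95). Only Hmgb2 was measured in NK cells, at 394 and 474 CPM, and it was not past 1.5-fold, where 8.95% and 9.19% of all genes were. Mki67, Top2a and Birc5 had no UMI in any NK cell.

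Over all cells kept, the set read 768 CPM in WT and 468 CPM in Xbp1dIEC (log2 ratio -0.72, -0.74 to -0.69), and 449 (7.41%) and 301 cells (4.92%) were positive. Of the 35 members, 24 were lower past 1.5-fold and none was higher, against 1.28% and 0.597% of all genes measured. With 10 CPM added 4 passed, and the share of all genes by that rule was not computed. Large macrophages held 66.9% of the set's UMIs in WT and 48.9% in Xbp1dIEC, though their share of cells was 48.5% and 47.5%. B-1 cells held 5.97% and 19.7% of the set's UMIs, and were 12.7% and 19.1% of cells.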

How the data were processed

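The data are 2 droplet single-cell libraries. Values deposited by the authors are whole-number UMI counts for each gene in each barcode, without normalization; per the submitters' processing notes they come from Cell Ranger 2.2.0, Seurat 2.3.0 and build mm10. Barcodes needed 500 UMIs, 200 genes and a mitochondrial share under 10%, which removed 6 WT and 20 Xbp1dIEC barcodes, and scrublet in scanpy 1.11.5 (expected rate 5%) removed 140 (2.26%) and 113 (1.82%) doublets; 13 and 3 of these would have been set-positive.

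Cells were assigned to a lineage by UMIs of marker genes (B 5, T 3, NK 4, myeloid 3, or 5 of the Cd209a list or 12 of the large macrophage list) and needed exactly 1 lineage. Myeloid cells went to the list with most UMIs, 5 at least. B cells were B-1 with 25% or more, and B-2 with under 10%, B-1 markers among 2 or more UMIs of both lists. These minimums were set after the distributions of marker UMIs had been seen, and the members and all gene lists were chosen with earlier results of these data known. Lowest depth was 2597 and 2485 UMIs, so every cell could be thinned to 1000 UMIs.

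Levels, in CPM, carry exact Poisson intervals. Gene ratios on the log2 scale have 1 CPM added, with exact conditional binomial intervals at 95%; shares have exact Clopper-Pearson intervals. Genes with 30 UMIs over both libraries counted as measured, and 1.5-fold is a rule of size, not a test. Named in full were up to 2 members with most UMIs per role and any member past 1.5-fold against the direction of most; other members are named for completeness, and those singled out as extremes were chosen after their values were seen. Limits for a count of 0 are 3 counts of the total. Alternatives changed thinning, the positive rule, members, doublets, mitochondrial share, gates, scaling, the CPM added and the UMI minimum. The steps were tested on simulated data. Python 3.11.15, SciPy 1.17.1, NumPy 2.4.6 and matplotlib 3.10.9 were used. A gene of the macrophage list is not reported here.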

Additional observations from a re-analysis of the deposited data

Results flagged for a closer look

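Between genotypes the summed level of the set in B-1 cells (log2 ratio 0.094) lay on the opposite side of 0 from that in large macrophages (-0.97). It was -0.21, on the same side, when cells with genes of more than 1 lineage were assigned to the lineage with most marker UMIs. Each value compares 1 library with 1 library, and the difference between the 2 classes was not tested.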

How the results depend on the processing

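Log2 ratios of shares and of summed CPM and counts of members between genotypes were recomputed under the alternatives planned for each. With 1 or more UMIs as the positive rule, the ratio of shares was -0.56 in large macrophages, -0.36 in B-1 cells, where it was 0.77, and -0.36 in all cells. At 500 UMIs per cell it was -2.16 in B-2 cells (interval -7.68 to 0.89) and -0.82 in all cells. For summed CPM, a mitochondrial limit of 5% gave -0.93 in large macrophages, 0.29 in B-1 cells and -0.64 in all cells. Stricter gates gave -0.69 in Folr2/Retnla cells. With no limit on other lineages B-1 cells reversed to -0.21. Scaling by the median gene gave -0.91 in large macrophages and -0.67 in all cells. Without the 4 broad members it was -1.08 in large macrophages, -0.88 in Folr2/Retnla cells, 0.26 in Cd209a cells, -1.001 in T cells (0.04 when the top cell of each library was left out as well), 1.29 in NK cells (interval -0.64 to 3.77) and -0.82 in all cells. Leaving out the cell with most UMIs of the set in each library, chosen after seeing the data, gave 0.36 in Cd209a cells and reversed T cells to 0.28. Members lower past 1.5-fold with 10 CPM added numbered 11 of 35 in large macrophages, 11 of 28 in Folr2/Retnla cells and 4 of 35 in all cells. Requiring 100 UMIs left 15 members measured in Folr2/Retnla cells, of which 10 were lower, where 21 of 28 had been. With 10 UMIs 9 members were measured in Cd209a cells, 2 lower and 2 higher. In T cells 9 were measured by that rule, 3 lower and 1 higher. The 2 of 26 members higher in B-1 cells became 0 of 26 with stricter gates or with 10 CPM added. They became 0 of 14 with 100 UMIs, 1 of 30 with no limit on other lineages and 4 of 32 with 10 UMIs. The 1 member higher in T cells became 0 with doublets kept, a mitochondrial limit of 5%, stricter gates, no limit on other lineages or 10 CPM added. In B-2 cells 1 of 8 was lower with no limit on other lineages and 1 of 10 with 10 UMIs. Shares of all genes under these alternatives were not computed, so the counts have no background beside them. Apart from the alternatives' own construction, the cause was not tested. No paired analysis was possible because each genotype has 1 library, and for the same reason no replicate could be left out. Few cells or few UMIs of the set limit NK, Cd209a, T and B-2 cells, where at most 5 members were measured under the main rules.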
